A study of Homo sapiens with 18 samples.

Results

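Gene expression programs were compared between H929 and MM1S, established human cell lines grown from plasma cells of patients with multiple myeloma. Genes were chosen by their rank within each library. A gene was kept where its rank in every H929 library lay on the same side of its rank in every MM1S control library, with ties counted against separation. Of 16046 gene symbols shared by the 3 expression tables, 7963 (49.6%) were kept. Of these, 4053 (25.3% of the shared symbols) ranked higher in H929 and 3910 (24.4%) ranked higher in MM1S. Ranks are given as percentiles of the shared symbols, rising to 100 for the highest value in a library. Tied genes share their mean rank, so genes listed at 0 lie above percentile 0. MPO, for example, lay at 7.2 to 7.4 in the MM1S controls, all of which list it at 0. In the H929 libraries that list it at 0 it lay at 4.2 to 5.4. The distance in percentile points between the nearest libraries of the 2 lines is called the gap. These counts describe the choice of genes and carry no test.

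The H929 libraries were 3 labelled scramble, a control hairpin, and 3 labelled shRBM39, a hairpin against the splicing factor gene RBM39. The MM1S control libraries were 2 with scramble and 3 with the solvent DMSO. A further 2 MM1S libraries with shRBM39 and 3 with indisulam, a drug that leads to degradation of the RBM39 protein, were not used to choose genes. The labels give neither dose nor time, and whether numbered libraries are separate cultures is not said. P-values then cover only the spread among these libraries, part of which may be technical.

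Myelomas are grouped by founding chromosome changes that raise particular oncogenes. H929 is known for a t(4;14) translocation, which places FGFR3, a receptor tyrosine kinase gene, and NSD2, a histone methyltransferase gene, near immunoglobulin enhancers. MM1S is known for a t(14;16) translocation, which does the same for the transcription factor gene MAF. Both keep the secretory program of plasma cells, run by IRF4, PRDM1 and XBP1.

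RBM39 went against the labels in H929, where it was 4.43 to 4.56 FPKM in the libraries labelled scramble and 35.6 to 38.6 FPKM in those labelled shRBM39. In the MM1S controls it was 176 and 205 TPM with scramble and 189, 178 and 196 TPM with DMSO. Every H929 library thus ranked RBM39 below every MM1S control library, by a gap of 6.4 points. The H929 groups are named as labelled throughout.

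The 2 lines were deposited in tables normalized separately, so values in FPKM (H929) and TPM (MM1S) are printed side by side, with no fold change and no test between the lines. Line and table cannot be told apart. Within MM1S, scramble and DMSO libraries also sit in separate tables, but these list the same 57176 unique symbols, whereas the H929 table lists 16532. A difference between MM1S tables therefore does not cover one that comes from gene annotation. The median absolute rank difference was 7.34 points between H929 and the MM1S controls, 4.43 points between MM1S scramble and MM1S DMSO, and 2.73 points between the H929 labelled groups. With fewer libraries on each side, the same separation rule held for 63.5% of symbols between MM1S scramble and DMSO and for 57.0% between the H929 labelled groups. Separation by itself is therefore common within a line, and the gap is given with each gene. Within that limit, a gap larger than a gene's own scramble to DMSO difference was found for 2434 (60.1%) of the genes higher in H929 and for 2543 (65.0%) of those higher in MM1S. Spearman's rho across genes, which are not independent replicates, was 0.829 to 0.859 between H929 and MM1S control libraries, 0.947 to 0.958 between MM1S scramble and DMSO, and 0.976 to 0.978 between the H929 labelled groups.

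**Figure D1:**
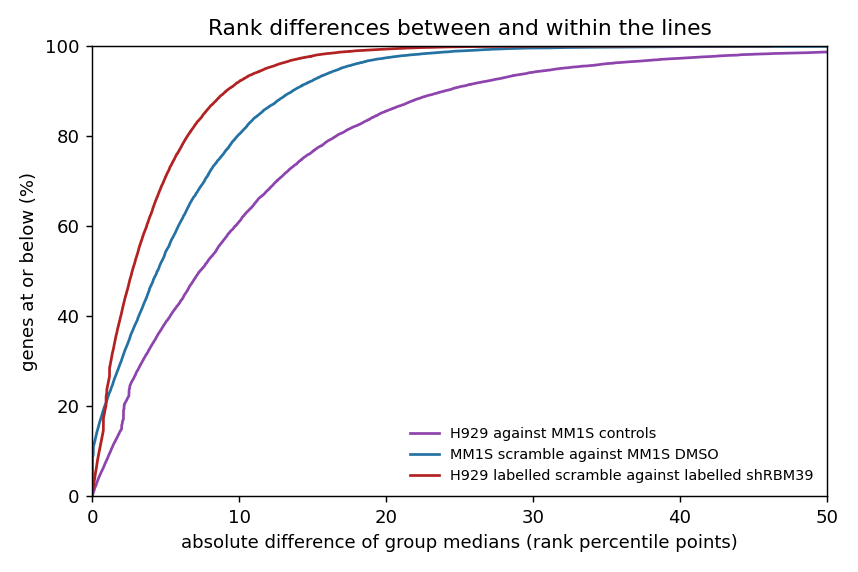
Share of the 16046 shared genes (y axis, %) whose group medians differ by no more than the number of rank percentile points on the x axis. The curve for H929 against the MM1S controls lies to the right, with a median of 7.34 points, of those for MM1S scramble against DMSO (4.43) and for the H929 labelled groups (2.73).

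FGFR3 and MAF each ranked higher in the line known for its translocation. FGFR3 was 214 to 803 FPKM in H929 (median 477). In MM1S it was 0.24 and 0.4 TPM with scramble and 0.29, 0.13 and 0.14 TPM with DMSO, and its gap was 70.5 points. NSD2 separated by 2.0 points only, at 54.4 to 87.4 FPKM in H929 (median 68.1) against 68.2, 67.8, 26.2, 24 and 28.7 TPM in MM1S. Its MM1S level was thus far higher in the scramble than in the DMSO libraries. Of 5 measured genes of the t(4;14) list, 2 ranked higher in H929 (FGFR3 and NSD2), 2 ranked higher in MM1S and 1 did not separate. MAF was 3.29 to 4.11 FPKM in H929 (median 3.47) and 247, 248, 105, 97.2 and 102 TPM in MM1S, with a gap of 38.2 points. Of 9 measured genes of the MAF list, MAF and genes known to be high in myelomas with it, 3 ranked higher in MM1S (MAF, CX3CR1 and TLR4), 0 ranked higher in H929 and 6 did not separate. Cyclin D2 (CCND2), on that list, overlapped between the lines, at 35 to 69.4 FPKM in H929 against 437 and 314 TPM with scramble and 37.5, 31.3 and 35.5 TPM with DMSO. The MM1S scramble libraries were far above the MM1S DMSO libraries.

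All 10 plasma cell markers had a median of at least 1 in both lines, and 5 of them ranked higher in H929, by small gaps. XBP1, which drives expansion of the secretory pathway, was 1619 to 2284 FPKM in H929 and 402 to 538 TPM in MM1S, a gap of 1.1 points. The summed level of the plasma cell markers was 5165 to 8245 FPKM in H929 and 4786 to 8059 TPM in MM1S. In short marker panels, other cell types summed to no more than 47.2 FPKM or 29.5 TPM for any type in any of these libraries. Single genes outside these panels, the killer cell gene GZMB in H929 and the matrix gene SPARC in MM1S, reached higher values. The T cell gene CD3E made up most of the T cell sum in H929, at 15.5 to 46.7 FPKM, while CD3D and CD3G were listed at no more than 0.0723 FPKM.

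Genes with the widest gaps lay at the ends of the rank scale. In all, 1242 genes higher in H929 and 1372 higher in MM1S had gaps of 10 points or more, and 52 and 61 had gaps of 50 or more. The median gap was 5.63 points among genes higher in H929 and 6.4 among those higher in MM1S. Among the 15 widest gaps toward H929 were MLC1 (76.5 points), PFKP (75.5), a phosphofructokinase gene of glycolysis, and CDKN2C (74.7), which encodes the CDK4 and CDK6 inhibitor p18. MLC1 was 261 to 324 FPKM in H929 and at most 0.09 TPM in the MM1S controls. PFKP was 143 to 234 FPKM in H929, and in MM1S it was 0.08 and 0.11 TPM with scramble and listed at 0 in the 3 DMSO libraries. CDKN2C was 185 to 240.2 FPKM in H929 and was listed at 0 in 4 of 5 MM1S controls, with 0.15 TPM in the other. The receptor phosphatase gene PTPRS, the receptor gene GPR15 and the aspartic protease gene NAPSA had gaps of 73.2, 71.0 and 70.2 points.

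**Figure D2:**
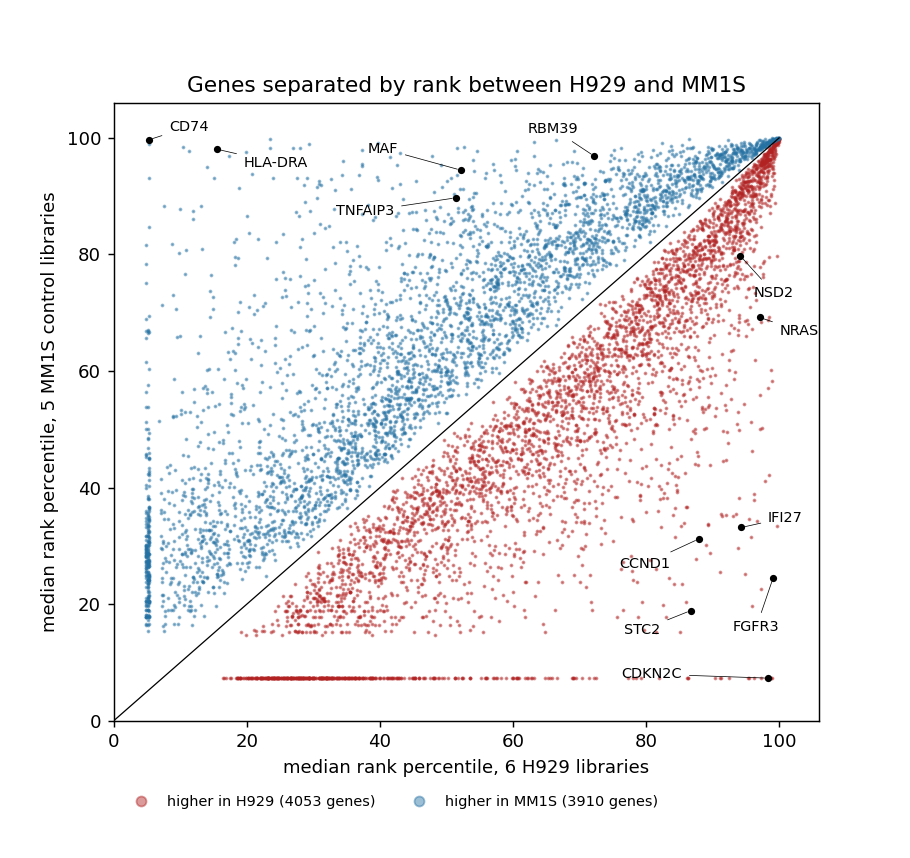
Median rank percentile of each separated gene in the 6 H929 libraries (x axis) and the 5 MM1S control libraries (y axis), red for genes higher in H929 and blue for genes higher in MM1S. FGFR3 and CDKN2C sit at the lower right, CD74 and HLA-DRA at the upper left, and rows of points at the edges are genes tied at 0.

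Toward MM1S the widest gap was that of CD74 (83.5 points). It encodes the invariant chain, a chaperone of MHC class II molecules and also a cell surface receptor. CD74 was listed at 0 to 0.0309 FPKM in H929 and stood at 3062, 1954, 2648, 2576 and 2577 TPM in MM1S. The tetraspanin gene CD9 was at most 0.174 FPKM in H929 and 118 to 265 TPM in MM1S. PCP4, a calmodulin regulator, was at most 0.0556 FPKM in H929 and 192 to 685 TPM in MM1S. LAPTM5, a lysosomal membrane protein gene of blood cells, was 0.161 to 0.505 FPKM against 577 to 964 TPM. For these 4 genes the lines were apart by 67.0 points or more in every pair of libraries.

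Some of the widest gaps toward MM1S belong to genes that every cell uses, such as the ribosomal protein gene RPL36A, at 0.0692 to 0.273 FPKM in H929 and 3221 to 3404 TPM in MM1S. RefSeq lists RPL36A as part of a read-through gene, in which the transcript of one gene continues into the next. Of 287 shared symbols in this class, 134 (46.7%) ranked higher in MM1S and 40 (13.9%) in H929. The 7 symbols in the pseudoautosomal regions, which occur on both sex chromosomes, all ranked higher in MM1S, SLC25A6 and CD99 among them. Counting also genes overlapped over at least 50% of their length by another protein-coding gene, these classes held 21.4% of the genes at 5 TPM or more in every MM1S control and under 1 FPKM in every H929 library, against 5.83% of all shared symbols found in RefSeq. Their share among the genes high in H929 and under 1 TPM in MM1S was 3.61%. The part that gene overlap has in the result was not tested. RPS10, RPL17, MRPS24 and TNFSF13 are read-through partners, and FKBP2, SESN1, ETV4, EDEM2 and ALDOA are overlapped, so their values are uncertain. Genes with near-identical copies (U2AF1, CCL4L2 and the MAGEA, MT1 and HLA families) are uncertain for the same reason.

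The clearest group toward MM1S was MHC class II, the machinery by which B lineage cells present peptides to helper T cells, controlled by the transactivator CIITA. Of 16 measured genes, 9 ranked higher in MM1S, 0 in H929 and 7 did not separate. The list's median difference was -24.92 points (H929 minus MM1S), against -0.1 for all shared symbols. Promoters of the class II genes are known to share an X box and a Y box. The promoters of 7 of the 9 genes are in RefSeq's table (GRCh38.p14, 250 bases before to 50 after a start site). The list also holds CD74 and regulator genes, so the 7 do not all encode class II molecules. The longest run of letters shared upstream of the start site by at least 3 of these 7 genes was ACTGATGATG, in HLA-DRB1, HLA-DMA and HLA-DMB, a count that the choice of the run fixed. On either strand it was found in 0.11% of the 27305 genes with a promoter entry (0.09% of 35116 promoters). The letters CCAAT, whose reverse is ATTGG, were found in 5 of the 7 (also HLA-DPB1 and CD74) and in 39.7% of all genes (34.6% of promoters). The 3 promoters with the longer match are shown, over 120 bases upstream of the start site, with both matches in capitals. HLA-DRB1 is at chr6:32589859-32589978, HLA-DMA at chr6:32953142-32953261 and HLA-DMB at chr6:32941048-32941167, each on the minus strand.
HLA-DRB1: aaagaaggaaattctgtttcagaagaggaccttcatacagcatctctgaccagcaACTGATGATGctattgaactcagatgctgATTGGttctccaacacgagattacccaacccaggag
HLA-DMA: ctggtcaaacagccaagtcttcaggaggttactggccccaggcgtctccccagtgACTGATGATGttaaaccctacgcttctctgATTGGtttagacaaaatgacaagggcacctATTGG
HLA-DMB: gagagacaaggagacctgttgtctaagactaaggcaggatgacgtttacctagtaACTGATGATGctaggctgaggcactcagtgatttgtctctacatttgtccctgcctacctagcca
The stretches and letters were picked after the values were seen, a match is a description and not a binding site, and the CCAAT match of HLA-DMB lies outside the bases shown. Class II genes that did not separate were not counted, so a link of these letters to the line difference was not tested.

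HLA-DRB1 was 0.106 to 0.668 FPKM in H929 (median 0.54) and 247, 127, 28.8, 30.5 and 30.6 TPM in MM1S. HLA-DMA, which edits the bound peptide, was 0.843 to 2.28 FPKM against 77.9, 55.4, 32.3, 29.8 and 30.1 TPM. HLA-DMB, its partner, was at most 0.18 FPKM against 18.5, 15.8, 5.65, 5.88 and 5.05 TPM. In each case the scramble libraries were above the DMSO libraries, and all 5 were above H929. HLA-DRA, the invariable class II alpha chain, was at most 0.0874 FPKM in H929 and 1239.6, 776, 292, 266 and 268 TPM in MM1S. HLA-DPA1 was 0.241 to 0.563 FPKM against 197, 118, 80.5, 70.6 and 72 TPM. CIITA itself was 0.0155 to 0.0319 FPKM in H929 and 34.8, 22, 9.03, 7.43 and 8.32 TPM in MM1S, so that its scramble libraries again lay above its DMSO libraries. Of the other regulators, RFXAP separated by 3.2 points, and RFX5 and RFXANK did not separate.

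Class I genes, which present peptides on nearly all cells, separated by smaller gaps than class II. Of 18 measured, 5 ranked higher in H929 and 2 in MM1S, with 0 gaps of 10 points or more in either direction. HLA-E was 459.5 to 747 FPKM in H929 and 153, 176, 349.6, 371 and 357 TPM in MM1S, a gap of 0.9 points.

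In 2 other lists with immune genes, more genes lay on the MM1S side than on the H929 side, though many did not separate. Over all shared symbols 24.4% ranked higher in MM1S. Among 21 chemokine and chemokine receptor genes, 8 (38.1%) ranked higher in MM1S, 1 in H929 and 12 did not separate (median difference -11.77 points). The monocyte chemokine receptor gene CCR2 was at most 0.0645 FPKM in H929 and 35.5, 30.4, 10.5, 9.14 and 10.2 TPM in MM1S. CXCR4, which holds plasma cells in the bone marrow, was 2.89 to 4.85 FPKM against 28.7 to 34.1 TPM. CCL5 was 2.96 to 4.76 FPKM against 72.3 and 55.4 TPM with scramble and 24.4 to 26.4 TPM with DMSO. Among 33 surface antigens and therapy targets, 13 (39.4%) ranked higher in MM1S, 4 in H929 and 16 did not separate. The plasma cell surface markers SDC1, TNFRSF17, CD38 and SLAMF7 did not separate. TNFRSF13B, the TACI receptor for survival factors of plasma cells, was 0.146 to 0.505 FPKM in H929 and 139.9, 159, 342, 388 and 392 TPM in MM1S. GPRC5D, a target of myeloma therapies, was 12.7 to 20.1 FPKM against 84.8, 154, 350.3, 358 and 356 TPM. CRBN, the receptor of the lenalidomide class of drugs, was 4.42 to 5.12 FPKM against 15.2 to 28.3 TPM, a gap of 10.6 points. The adhesion gene NCAM1 (CD56) went the other way, at 16.4 to 27.6 FPKM in H929 and 0.71 to 1.92 TPM in MM1S.

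NF-kB genes, which control survival and inflammation, were on the MM1S side for 8 of 19 and on the H929 side for 3 (median difference -10.25 points). The members higher in MM1S include brakes of the pathway. TNFAIP3, which removes activating ubiquitin, was 2.28 to 4.37 FPKM in H929 and 159.9, 107, 58.5, 48.5 and 55.3 TPM in MM1S. CYLD, with the same kind of role, was 3.58 to 5.15 FPKM against 17.9 to 42.8 TPM. TRAF3 and the kinase gene MAP3K14 also ranked higher in MM1S, as did NFKB1, while RELA, REL and ICAM1 ranked higher in H929.

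**Figure D3:**
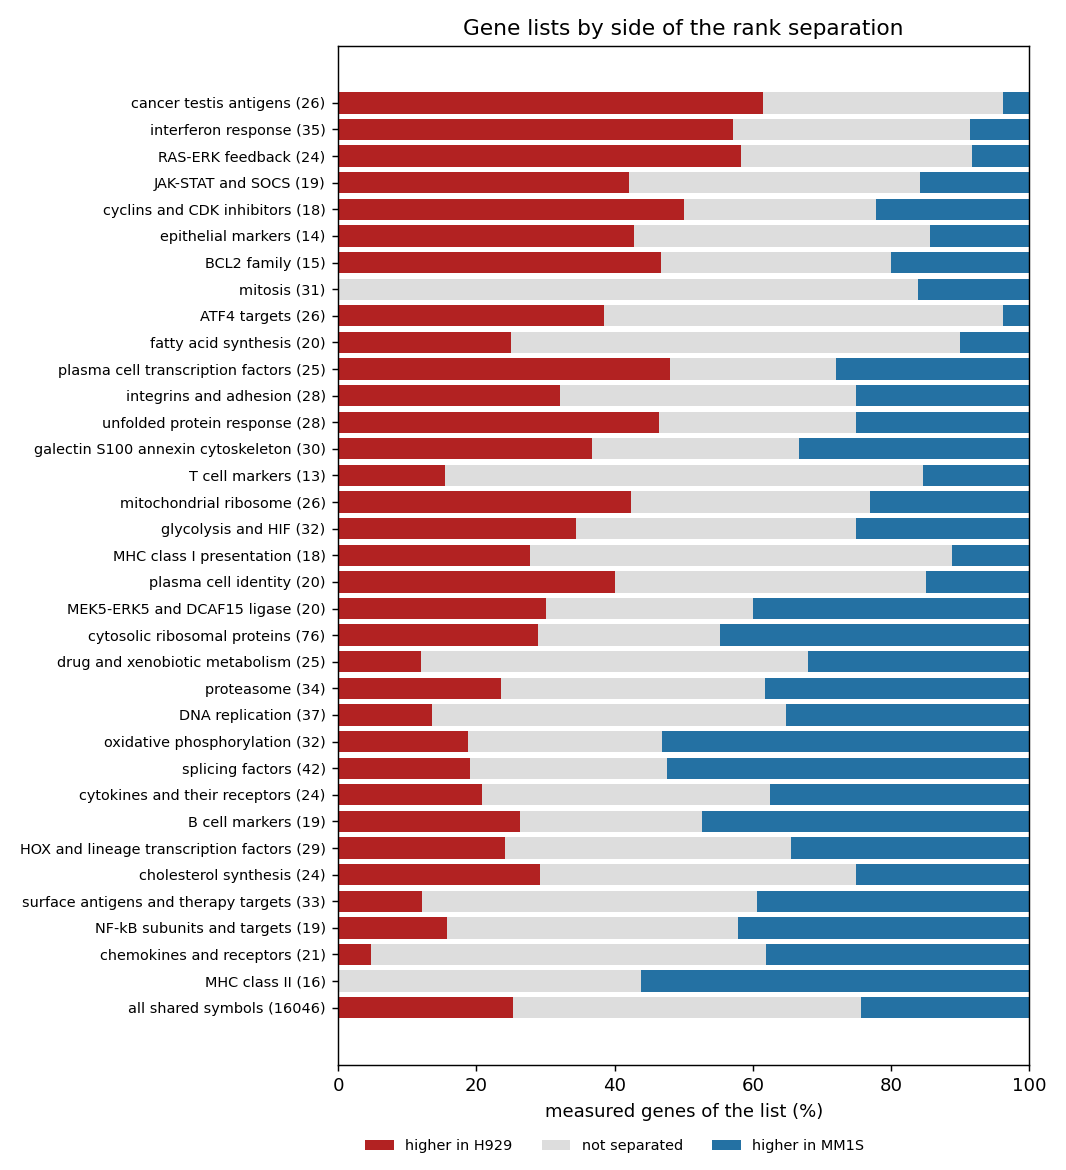
Share of the measured genes of each list (number in parentheses) that ranked higher in H929 (red), did not separate (grey) or ranked higher in MM1S (blue), ordered by the median rank difference. Cancer testis, interferon and RAS-ERK lists lie at the H929 end, and MHC class II and chemokines at the MM1S end, beside 25.3% and 24.4% for all shared symbols at the bottom.

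Interferon response genes, a set of antiviral genes, were among the lists furthest toward H929. Of 35 measured, 20 ranked higher in H929, 3 in MM1S and 12 did not separate (median difference 14.0 points). Their promoters are known for an interferon-stimulated response element. The letters GAAA, any 2 bases and GAAA again, on either strand, were found in the promoters of 9 of the 15 genes higher in H929 that have a RefSeq entry, and in 4.38% of all genes (3.57% of promoters). Those 9 were MX1, OAS3, IFIT1, IFIT3, IFIT5, IFI6, IFI27, ISG15 and RSAD2. The same letters were in 0 of the 7 promoters of the class II list above, and ACTGATGATG was in 0 of the 15. Interferon genes that did not separate or ranked higher in MM1S were not counted. These counts therefore describe the kind of gene listed, and a link to the line difference was not tested. Stretches of 120 bases upstream of the start sites of 4 of them follow, chosen after the values were seen, with the matches in capitals. IFI27 is at chr14:94110573-94110692 and ISG15 at chr1:1013329-1013448, both on the plus strand, IFI6 is at chr1:27672284-27672403 on the minus strand, and IFIT3 at chr10:89327786-89327905 on the plus strand (GRCh38.p14, RefSeq).
IFI27: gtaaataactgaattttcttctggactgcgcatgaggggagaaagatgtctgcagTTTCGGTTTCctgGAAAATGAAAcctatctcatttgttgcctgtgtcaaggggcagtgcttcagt
IFI6: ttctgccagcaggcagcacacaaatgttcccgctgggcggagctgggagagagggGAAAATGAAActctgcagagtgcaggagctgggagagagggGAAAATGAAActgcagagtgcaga
ISG15: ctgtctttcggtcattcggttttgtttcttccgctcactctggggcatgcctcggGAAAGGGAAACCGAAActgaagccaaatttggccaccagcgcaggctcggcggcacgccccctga
IFIT3: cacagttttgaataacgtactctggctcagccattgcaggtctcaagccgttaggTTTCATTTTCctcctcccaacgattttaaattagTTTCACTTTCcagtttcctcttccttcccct
In ISG15 the capitals hold 2 overlapping matches.

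IFI27 was 43.5 to 118 FPKM in H929 (median 73.7) and 0.22, 0.83, 0.75, 0.73 and 0.86 TPM in MM1S. IFI6 was 58.6 to 150.2 FPKM against 4.86 to 7.58 TPM. ISG15, a ubiquitin-like modifier, was 45.7 to 115 FPKM against 10.1, 10.9, 15, 18.4 and 16.3 TPM. Their lowest H929 percentiles exceeded the highest MM1S percentiles by 56.6, 36.0 and 18.2 points. IFIT3 was 5.02 to 8.74 FPKM against 4.35 and 2.97 TPM with scramble and 0.24, 0.35 and 0.36 TPM with DMSO, so that the MM1S scramble libraries were above the DMSO libraries. GBP1, a guanylate binding protein induced mainly by interferon gamma, went the other way, at most 0.0532 FPKM in H929 and 28.9, 18.4, 8.96, 7.74 and 7.31 TPM in MM1S.

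Cancer testis antigens are genes normally confined to germ cells that many myelomas switch on. Of 26 measured, 16 ranked higher in H929 and 1, TEX14, in MM1S (median difference 17.2 points). SSX1 was 81.3 to 110.2 FPKM in H929 and was listed at 0 in 4 of the 5 MM1S controls, with 0.04 TPM in the other. MAGEA4 was 107 to 159 FPKM against at most 0.19 TPM, and MAGEA3 45.2 to 58 FPKM against at most 0.04 TPM. CTAG2 was 73.4 to 92.4 FPKM against at most 0.34 TPM. Every H929 library, of either label, held these 4 genes at 45.2 FPKM or more. PRAME separated by 1.1 points only, at 11 to 12.4 FPKM against 7.95 to 19.5 TPM.

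Cell cycle regulators differed gene by gene. Of 18 cyclins, CDKs and CDK inhibitors measured, 9 ranked higher in H929 and 4 in MM1S. Cyclin D1 (CCND1), which starts the cycle with CDK4 and CDK6, was 30.6 to 33.9 FPKM in H929 and 1.53, 0.74, 0.53, 0.52 and 0.32 TPM in MM1S. CDK6 was 38 to 52.1 FPKM against 15.5, 12.6, 7.74, 7.19 and 7.8 TPM. The inhibitor gene CDKN2A (p16 and ARF) was 13.6 to 15 FPKM against at most 0.24 TPM, and was listed at 0 in both scramble libraries. Of 31 mitosis genes, 5 ranked higher in MM1S and 0 in H929, although the list's median difference was 2.8 points. CDK1, the mitotic kinase, was 10.9 to 13.7 FPKM in H929 and 191, 183, 62.6, 56.3 and 56.5 TPM in MM1S.

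RAS-ERK genes, a growth signalling pathway with its own feedback inhibitors, were higher in H929 for 14 of 24 and in MM1S for 2 (median difference 13.19 points). The transcription factor genes ETV4 and ETV5, induced by ERK, were 19 to 31.8 and 23.1 to 32.4 FPKM in H929. In MM1S, ETV5 was 9.7 and 5.44 TPM with scramble and 2 to 2.37 TPM with DMSO, and ETV4 was at most 1.05 TPM. DUSP6, a phosphatase that turns ERK off, was 58.6 to 111 FPKM against 8.09, 15.9, 18.2, 17.9 and 14.8 TPM. NRAS, which encodes a RAS protein at the head of the pathway, was 88.1 to 171 FPKM in H929 and 14.2 to 19.2 TPM in MM1S, a gap of 26.4 points.

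CDKN1A (p21), which stops the cell cycle, was 122 to 782 FPKM in H929 and 76, 58.5, 13.6, 13 and 14.8 TPM in MM1S. PHLDA3, an inhibitor of AKT, was 14.6 to 41.4 FPKM against 6.52, 5, 1.82, 1.08 and 0.8 TPM. In H929 both lay lower in the libraries labelled shRBM39. ATF4 targets, which answer amino acid shortage, ranked higher in H929 for 10 of 26, while the gene ATF4 was the 1 member on the MM1S side. STC2, a secreted glycoprotein gene, was 23.1 to 37.3 FPKM in H929 and at most 0.36 TPM in MM1S.

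**Figure D4:**
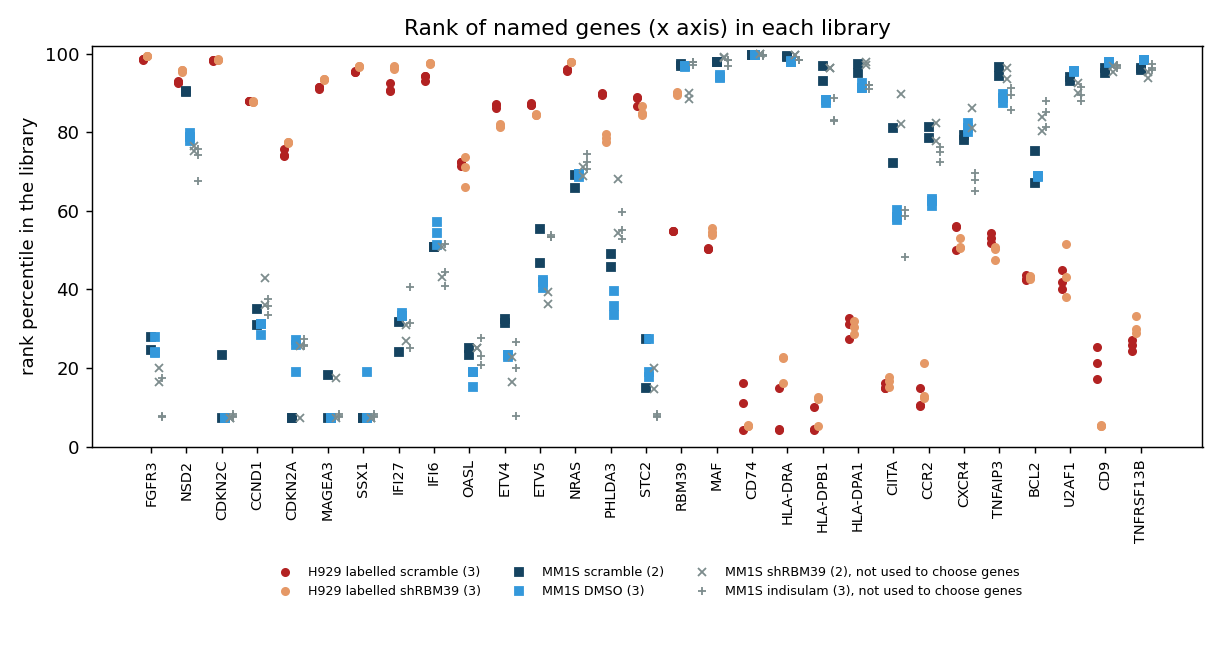
Rank percentile (y axis) of named genes (x axis) in each library, circles for H929, squares for the MM1S controls, and crosses and plus signs for the MM1S shRBM39 and indisulam libraries, which were not used to choose the genes. FGFR3 to STC2 lie higher in H929 and RBM39 to TNFRSF13B higher in the MM1S controls, while RBM39 in the MM1S shRBM39 libraries comes near the H929 libraries labelled shRBM39.

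Genes of the BCL2 family, which holds both survival and death genes, ranked higher in H929 for 7 of 15 and in MM1S for 3. BCL2, the target of venetoclax, was 1.47 to 1.93 FPKM in H929 and 25.7, 17.5, 14.8, 14.3 and 14.7 TPM in MM1S, a gap of 23.4 points. BCL2L1 (BCL-XL) was 21.3 to 32.8 FPKM against 146 to 165 TPM. The pore-forming death gene BAK1 was 70 to 86.6 FPKM against 36.4 to 41.8 TPM, a gap of 9.9 points toward H929.

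RNA and energy genes differed mainly by small gaps. Splicing factors ranked higher in MM1S for 22 of 42, RBM39 among them, and in H929 for 8, but gaps of 10 points or more were found for 5 and 0. SRSF10 was 10.5 to 11.5 FPKM in H929 and 111, 130.2, 51.1, 40.8 and 47.1 TPM in MM1S. Oxidative phosphorylation genes ranked higher in MM1S for 17 of 32 and in H929 for 6, with 3 and 0 gaps of 10 points or more. Cytosolic ribosomal protein genes were on the MM1S side for 34 of 76 and on the H929 side for 22, with a median difference of -0.02 points.

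Of 59 listed pairs of related genes, 16 had members separated in opposite directions, and in 9 both were at 5 or more in their higher line. With gaps of 10 points or more, 2 pairs remained. Over all shared symbols 25.3% ranked higher in H929 and 24.4% in MM1S, so unrelated genes also form opposite pairs. How often they do was not counted, and the 16 are a description. The enolase genes ENO1 and ENO2 made such a pair. ENO2 was 1.3 to 7.4 FPKM in H929 and 141 to 162 TPM in MM1S, a gap of 30.4 points, whereas ENO1 separated toward H929 by 0.1 points. The histone methyltransferase gene EZH2 was 7.41 to 11.9 FPKM against 50.4 to 60.5 TPM, and its relative EZH1 was 19.1 to 26.4 FPKM against 20 to 26.4 TPM with a gap of 5.7 points toward H929. Others were NSD2 and NSD3, PIM2 and PIM1, TCF3 and TCF4, KLF2 and KLF6, CDKN1A and CDKN1B, and SMARCA4 and SMARCA2, the first of each higher in H929. The second was higher in MM1S in each.

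At the limit of the choice, MYLK3 and PAG1 lay just inside with gaps of 0.0062 points each, and BBS4, EXT1 and FSD2 just outside with gaps of 0. The median percentiles of MYLK3 were 28.66 in H929 and 20.64 in MM1S, and those of BBS4 58.96 and 50.7.

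The 5 treated MM1S libraries, which the rule did not use, kept most genes on their side. Of the 4053 genes higher in H929, 3204 (79.1%) ranked above all 5 treated libraries in every H929 library, where 24.4% of all shared symbols did. Of the 3910 genes higher in MM1S, 3079 (78.7%) stayed on the MM1S side, against 23.6% of all shared symbols. Only 9 and 25 genes crossed to the opposite side. The H929 libraries are the ones that chose the genes, and the shares of all symbols include the chosen genes, so these counts are a description. The treated libraries come from the same tables as the MM1S controls and repeat the line and the table together. Indisulam replicate 3 stood apart, with a median of 3.26 TPM over shared symbols against 5.24 and 5.29 TPM, and without it the shares were 82.1% and 81.1%. FGFR3 was at most 0.08 TPM in the treated libraries and CD74 was 1916 to 7966 TPM. RBM39 was 64.8 and 52.2 TPM in the 2 MM1S shRBM39 libraries, whose ranks overlapped those of the H929 libraries labelled shRBM39.

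Within each line, limma was used on log2(value + 1), and a gene was called where the p adjusted by Benjamini and Hochberg's method was under 0.05. In H929, 24.1% of 10360 genes tested were called higher and 48.1% lower (72.2% in all) in the libraries labelled shRBM39. All 6 H929 libraries were used to choose the genes, so counts by side are a description. Of the genes higher in H929, 3482 were tested, 639 were called higher (18.4%) and 2040 lower (58.6%). Of those higher in MM1S, 2476 were tested, 664 were called higher (26.8%) and 897 lower (36.2%). Among tested shared genes that did not separate, 27.3% were called higher and 46.4% lower. Over all genes tested the median log2 difference stood at -0.134. Dividing each library by its median turned the balance of calls, from 30.7% to 52.1% higher among the separated genes. Among named genes higher in H929, FGFR3 was at 752 against 227 FPKM (log2 difference 1.73, SE 0.0521, limma adjusted p = 4.54e-11). CDKN1A was at 126 against 748 FPKM (-2.56, SE 0.0432, limma adjusted p = 1.96e-13). The groups did not overlap for either gene, nor for RBM39, at 37.5 against 4.5 FPKM (2.81, SE 0.055, limma adjusted p = 7.68e-13).

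The MM1S comparisons share their control libraries with the rule. With shRBM39, 3.98% of 14133 genes tested were called higher and 6.37% lower (10.3% in all). Of 2915 genes higher in H929 that were tested, 104 (3.6%) were called higher and 95 (3.3%) lower. Of 3530 higher in MM1S, 128 (3.6%) were called higher and 331 (9.4%) lower. Among tested shared genes that did not separate, 3.6% were called higher and 8.4% lower, near the shares of the MM1S side. All 5 separated mitosis genes fell with shRBM39, MAD2L1 from 104 to 30.7 TPM (log2 change -1.72, SE 0.125, limma adjusted p = 0.0116) and CDK1 from 187 to 53.9 TPM (-1.78, SE 0.138, limma adjusted p = 0.0116). NSD2 fell from 68 to 25.3 TPM (-1.39, SE 0.133, limma adjusted p = 0.0121). These calls rest on 2 libraries a group: leaving out either scramble library or shRBM39 replicate 2 gave 0 separated genes called by limma, against 658 (956, 1021 and 2012 at an unadjusted p under 0.05, against 2004), and leaving out shRBM39 replicate 1 gave 203. The spread then comes from 1 group, and the lone library is assumed to vary like it. With the replicate number as a block 107 were called, and without a filter on low values 0 (1932 at an unadjusted p under 0.05).

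With indisulam, 8.49% of 13427 genes tested were called higher and 21.4% lower (29.9% in all). Of 2810 tested genes higher in H929, 168 (6.0%) were called higher and 522 (18.6%) lower. Of 3384 higher in MM1S, 199 (5.9%) were called higher and 989 (29.2%) lower. Among tested shared genes that did not separate, 6.2% were called higher and 22.7% lower. All 13 DNA replication genes on the MM1S side and all 5 on the H929 side fell. Of 22 splicing factors higher in MM1S, 13 fell and 0 rose, where 29.2% of all tested genes higher in MM1S fell. Of 8 splicing factors higher in H929, 2 fell and 1 rose. U2AF1, a subunit of the factor that reads the 3′ splice site, was at 51.7 against 136 TPM (log2 change -1.38, SE 0.0975, limma adjusted p = 1.80e-04). APOBEC3B, a cytidine deaminase gene, was at 9.05 against 100.2 TPM (-3.33, SE 0.110, limma adjusted p = 2.52e-05). PHLDA3 rose from 1.23 to 6.67 TPM (1.80, SE 0.213, limma adjusted p = 0.00125). Of the 9 genes of the class II list higher in MM1S, 4 fell and 0 rose. Dividing each library by its median moved the share of calls that were higher from 19.5% to 40.4% among the separated genes. Without indisulam replicate 3 the number of separated genes called went from 1878 to 4245, of which 2231 (52.6%) were higher. Without DMSO replicate 1, 2 or 3 it was 954, 927 and 862.

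**Figure D5:**
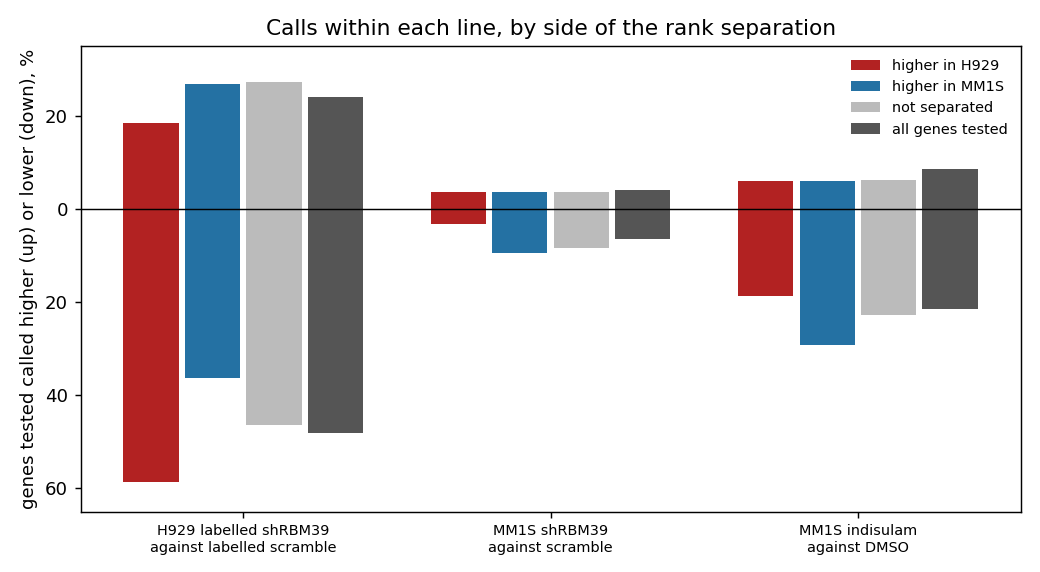
Share of genes tested that limma called higher (bars up) or lower (bars down) in each within-line comparison, for genes higher in H929, higher in MM1S, not separated, and all genes tested. Genes higher in H929 were called lower at 58.6% in H929, and genes higher in MM1S at 29.2% with indisulam, and every comparison shares libraries with the choice of genes.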

How the data were processed

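RNA sequencing values of 16 libraries were used as deposited; the 2 RNA immunoprecipitation libraries of the series (FPKM, per the file headers) served only to check symbols. The H929 values are FPKM made by the authors. The authors gave the MM1S tables the name FPKM as well, yet each deposited column sums to 1000000 and is read here as TPM; ranks do not depend on this scaling. The design had assumed FPKM, and the same tests were run. RNA was taken with TRIzol and libraries made with a SMARTER mRNA kit, per the labels' protocols. For aligner and gene annotation the sources used here give nothing. The submitters' processing notes list mouse builds although the symbols are human, so the files give no coordinates. Totals were 374512 to 428099 FPKM in H929. Read depth is unknown and no counting interval is given.

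Symbols found once in each table were shared (16046 of 16532 in H929, 97.1%). Rows without a name held at most 0.459% of TPM, and 27 names turned into dates were left out. 0 columns were unmatched. Of shared symbols, 99.3% were in the human gene reference. Percentiles are ranks within a library; a value of 5 was required of named genes in every library of the higher line. Named genes were RBM39, the genes of the t(4;14) and MAF lists, the 15 widest gaps per direction, up to 4 genes per list, opposite pairs and the 3 genes on each side of the limit. Within lines, up to 5 of these per direction with the smallest adjusted p were named. Other genes with printed values (HLA-DRB1, HLA-DMA, HLA-DMB, RFXAP, ISG15, IFIT3, DUSP6, CTAG2, PRAME, FAF1, and the markers CD3D and CD3G) and those named only for their side were chosen after their values were seen. The members and lists were chosen with earlier results of these data known. No list was tested as a set. The histone list had 0 measured genes. Some genes and 1 gene list are not reported here.

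limma 3.58.1 (trend, robust; R 4.3.3) was run on log2(value + 1) for genes at 1 or more in at least the smaller group's number of libraries. Replicate numbers did not pair the libraries. Both steps were tested on simulated data. Python 3.11.15, pandas 2.3.3 and NumPy 2.4.6 were used. Alternatives are given at the end.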

Additional observations from a re-analysis of the deposited data

Results flagged for a closer look

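Only the genes named for a small adjusted p within a line were looked at here. In 12 of them every H929 library labelled shRBM39 moved one way against those labelled scramble and every MM1S shRBM39 library moved the other way. The share of all shared symbols that do so was not counted. By rank, 57.0% of them separated between the H929 labelled groups. The difference between the lines was not tested, and RBM39 itself is among them, so the H929 labels bear on all 12. Log2 differences are given for H929, then MM1S. They were 2.81 and -1.69 for RBM39, -2.56 and 0.49 for CDKN1A, 1.5 and -0.74 for the glycolytic gene ENO1, -1.01 and 0.48 for the stress kinase gene EIF2AK3, and 1.0 and -0.85 for APOBEC3G. For NSD2 they were 0.6 and -1.39, for the kinase gene PIM2 0.83 and -0.88, for EZH1 -0.38 and 1.13, for the spindle checkpoint gene MAD2L1 0.45 and -1.72, and for PHLDA3 -1.29 and 0.98. ALDOA (0.65 and -0.57) and AHNAK (0.84 and -2.41) complete the set. In H929 the limma adjusted p was at most 2.57e-05 for all 12. In MM1S it missed the threshold for CDKN1A (0.235), EIF2AK3 (0.0995), APOBEC3G (0.0953), PHLDA3 (0.141) and ALDOA (0.0516).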

How the results depend on the processing

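Counts of separated genes, 4053 higher in H929 and 3910 higher in MM1S, were 4097 to 4239 and 3949 to 4132 when 1 library was left out. Requiring a value of at least 5 in the higher line gave 2406 and 2558, a gap of 5 points 2174 and 2267, a gap of 10 points 1242 and 1372, and, added after seeing the data, a gap above the MM1S table difference 2434 and 2543. Over all 27 alternatives the counts ran from 1242 to 5298 and from 1372 to 5417. Opposite pairs, 16 of 59, were 9 with a value of at least 5, 5 and 2 with gaps of 5 and 10 points and 4 with gaps above the table difference. The table difference within MM1S, 4.43 points, was 4.84 among the 8751 genes at 1 or more in every library, where the lines differed by 6.82. In treated libraries the members kept were 3326 and 3171 without MM1S indisulam replicate 3. Of 4115 values of 188 separated named genes under alternatives that changed the libraries or the symbols ranked, 4085 stayed on their side, 29 no longer separated, and 1, APOBEC3B, turned to 1.74 points toward H929 (from -2.59) when treated MM1S libraries were added.

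Separated genes called in H929, 4240, were 3958 to 4201 without 1 library and 4263 with the replicate block. With shRBM39 in MM1S, 658 became 0 to 203 without 1 library, 107 with the replicate block, 335 with a crossed replicate block (added after seeing the data) and 0 without the filter. With indisulam, 1878 became 862 to 4245 without 1 library and 1429 with the replicate block. The replicate block ended the MM1S shRBM39 calls of PIM2, EZH1, RFC5 and CD3E and changed no other call of a named gene. Same-numbered libraries deviated together at 0.129, 0 and 0.025 in H929, -0.142 in MM1S with shRBM39, and 0.137, -0.148 and -0.025 with indisulam. Without indisulam replicate 3 the RBM39 difference with indisulam was 0.24 (limma adjusted p = 0.00899) against 0.05. Low values near 0 cannot be placed more finely without read counts.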

Other observations

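Stretches of neighbouring genes lay on the same side. Among 9601 genes at 5 or more in a library, put in RefSeq order, the longest unbroken stretch, 14 from GOLT1B to STK38L, was higher in MM1S. A stretch of 12 from GPATCH4 to FCRL2 was higher in H929. Another of 12 from IL10RB to RCAN1, with the interferon receptor genes IFNAR1 and IFNGR2, was higher in MM1S. Whether such stretches are longer than in a random gene order was not tested. FAF1, which lies beside CDKN2C, was also low in MM1S, at 0.29 to 0.89 TPM against 11.1 to 13.2 FPKM in H929. A stretch of 10 from AK6 to GTF2H2 includes SMN1 and SMN2, near-identical copies whose values are uncertain. Copy number was not measured here.

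Metallothioneins, which bind zinc and copper, ranked higher in H929 for 3 of 5 measured. MT1E was 22.6 to 33 FPKM in H929 and at most 0.14 TPM in MM1S, MT1X 26.9 to 58.9 FPKM against 6.24 to 8.88 TPM, and MT2A 26.9 to 72.4 FPKM against 5.73 to 15.4 TPM. Of 25 drug and xenobiotic metabolism genes, 8 were higher in MM1S, 3 in H929 and 14 not separated, with a median difference of -0.26 points. The glutathione transferase gene MGST1 was at most 0.0116 FPKM in H929 and 19.6 to 33.4 TPM in MM1S, and UGT2B17, a glucuronidation enzyme gene, was at most 0.695 FPKM against 24.9 to 66.7 TPM. Single genes known from other cell types also separated. GZMB, a granzyme of killer cells, was 5.58 to 50.3 FPKM in H929 and listed at 0 in all 5 MM1S controls. SPARC, a matrix protein gene, was at most 0.218 FPKM in H929 and 31.3 to 52.1 TPM in MM1S. The lists went both ways. Of 10 measured NK cell markers, 3 ranked higher in H929 and 3 in MM1S. Of 12 fibroblast and muscle markers, 2 ranked higher in H929 and 4 in MM1S. Among the former, ACTA2 was 5.45 to 17.0 FPKM in H929 and at most 0.27 TPM in MM1S.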
